A study of Mus musculus with 6 samples.

Results

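Macrophages named M1 were followed through mouse prostate tumours that had been treated with a butanediol diet, immune checkpoint blockade, both or neither. Members were the cells that the deposited cell table calls Mac_M1, and they numbered 535 of the 5749 cells in that table. All of them lay in 1 cluster of the deposited clustering, so genes that set this class apart from other classes are described below and not tested. The tumours were grown from PPS-ICBR, a prostate cancer line that resists checkpoint blockade, in C57Bl6 mice. In all, 4 groups of 3 tumours were profiled by single-cell RNA sequencing of leukocytes taken from dissociated tumours with a Percoll density step. SD tumours came from mice on standard chow without blockade, and BD tumours from mice on a diet of 198 g chow, 80 mL 1,3-butanediol, 120 mL water and 2 g saccharine. ICB tumours came from the standard diet with checkpoint blockade of PD-1 and CTLA-4, given biweekly at 0.2 mg. BD+ICB tumours had the butanediol diet and the same blockade. All tumours came from a single cancer line, age is not given in the labels used here, and the labels name tumours and not mice.

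Butanediol is converted in the body to the ketone body β-hydroxybutyrate, which serves as fuel and can bind the receptor Hcar2 and inhibit histone deacetylases. Tumour macrophages arise mainly from blood monocytes. M1 is textbook shorthand for macrophages activated by interferon-gamma and microbial signals, which make nitric oxide through Nos2, inflammatory cytokines and T cell recruiting chemokines. M2 is the shorthand for macrophages activated by interleukin-4 and related signals, with Arg1 and Mrc1 as defining genes. Macrophages inside tumours often carry genes of both programs.

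The M1 cells came unevenly from the tumours. SD tumours gave 16, 4 and 11 cells, BD tumours 45, 1 and 14, ICB tumours 49, 34 and 66, and BD+ICB tumours 106, 104 and 85. Gene comparisons used the 10 tumours with at least 10 M1 cells, which left out SD replicate 2 and BD replicate 2. Their summed M1 counts ranged from 129216 to 1639760 unique molecular identifiers (UMIs, counted mRNA molecules). The median M1 cell held 13258 UMIs. Tumour medians were 7823 to 9552.5 in BD, 10743.5 to 13063 in SD and 13212.5 to 16052 in the tumours under blockade. SD and BD tumours shared 1 sequencing library, and ICB and BD+ICB tumours shared the other, so blockade and library cannot be told apart. The diet is likewise tied to tumour size and to the set of cell hashtags (antibody barcodes that mark the tumour of origin). Recorded sizes, with no unit stated, were 172 to 203 in BD against 870 to 2348 in SD, and 23 to 90 in BD+ICB against 289 to 1116 in ICB. Median hashtag counts of M1 cells were 647 to 1530 in butanediol tumours and 2153 to 4703 in the others, and no deposited M1 cell had 500 or fewer. Of the 535 M1 barcodes, 4 were also in the other library's matrix, none of them deeper there. P-values below measure only the spread between these tumours, and in sums over cells, fewer cells of a subtype and less RNA per cell cannot be told apart.

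Fibronectin (Fn1, a matrix glycoprotein) was the leading gene of the M1 cells, and the other 14 genes chosen by the same rule barely exceeded another class. Levels are given as CPM, the UMIs of a gene scaled to a total of 1000000 UMIs for the class in a tumour, averaged over tumours with at least 10 cells of that class. Mean Fn1 was 2304 CPM in M1 cells and 1619 CPM in the next class, the macrophages deposited as Mmp+ M2, a log2 ratio of 0.51. These means cover 10 and 12 tumours. BD replicate 2 and SD replicate 2, absent from the M1 mean, had the lowest Mmp+ M2 values (761 and 563 CPM), so the ratio is not one within tumours. Among the other 14 genes the log2 ratio ran from 0.11 for Nras, a small GTPase, through 0.09 for the actin-severing protein Gsn, to -0.0045 for Pgd of the pentose phosphate pathway. Of the 6 markers given for the class, Fn1 was at rank 1 among 18 classes. Slc7a2, which imports arginine, was at rank 2 with 86.8 CPM. Scavenger receptor Msr1 (601 CPM), the lectin receptor Clec4n (674 CPM), the arginine-degrading enzyme Arg1 (1982 CPM) and the surface protein Ly6i (154 CPM) were each at rank 3. For each of them a class ahead of M1 was the Ifit+ monocytes, whose mean is that of 1 tumour.

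The name M1 matched the data only in part. Of 19 classical activation genes in the table, 16 reached 10 CPM in some macrophage class, and 7 of them were highest in M1 among the 4 macrophage classes: Il1b, Cd80, Cd86, Cd40, Cxcl9, Cxcl10 and Irf5. None was highest in M1 among all 18 classes. Of 22 alternative activation genes 16 reached that level and 4 (Chil3, Tgfb1, Ccl24 and Il1rn) were highest in M1 among macrophages. The share of all genes highest in M1 was not counted, so neither count can be set against it. These means cover 10 tumours for M1, 12 for each M2 class and 8 for the other macrophages. Some leads over Trem2+ M2 were narrow, with Irf5 at 81.6 against 81.5 CPM, Cd86 at 221 against 216 CPM and Chil3 at 136 against 133 CPM. Cxcl9, a chemokine that draws T cells, averaged 905 CPM in M1 cells against 141 CPM in Mmp+ M2 and 473 CPM in Trem2+ M2 macrophages of the same 10 tumours. The inflammatory cytokine Il1b averaged 3263, 2675 and 1819 CPM in the same order. In the macrophages deposited as other, over their own 8 tumours, Cxcl9 averaged 633 CPM and Il1b 1334 CPM. Their Cxcl9 values of 0 to 1062 CPM overlapped the 51.7 to 1857 CPM of M1 cells. In the 6 tumours that also held cells deposited as Nos2+ dendritic, Il1b averaged 3809 CPM in M1 and 5151 CPM in the dendritic class and was lower in M1 in 6 of 6. Cxcl9 averaged 1221 CPM in M1 and 1316 CPM in that class there, and was higher in M1 in 3 of 6.

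Nitric oxide synthase and arginase, the enzymes that define the pair of programs, followed the name against one M2 class each. Nos2 averaged 84.8 CPM in M1 cells, 301 CPM in Mmp+ M2 and 43.0 CPM in Trem2+ M2 of the same 10 tumours. It was lower in M1 than in Mmp+ M2 in 9 of 10 tumours and higher than in Trem2+ M2 in 8 of 10. Arg1 averaged 1982 ± 870 CPM (SD, n = 10 tumours) in M1 cells, 4720 CPM in Mmp+ M2 and 1123 CPM in Trem2+ M2. Within tumours Arg1 was below Mmp+ M2 in 10 of 10 and above Trem2+ M2 in 10 of 10. The mannose receptor Mrc1, another alternative activation gene, averaged 153 CPM in M1 cells, 489 CPM in Trem2+ M2 and 49.7 CPM in Nos2+ dendritic cells. It was lower in M1 than in Trem2+ M2 in 10 of 10 tumours and higher than in Nos2+ dendritic cells in 6 of 6. Fn1 was higher than in Trem2+ M2 in 10 of 10 tumours and than in Nos2+ dendritic cells in 6 of 6, but than in Mmp+ M2 in 6 of 10, with a median log2 ratio of 0.25. The cells are called M1 below only because the deposited table does so.

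**Figure D1:**
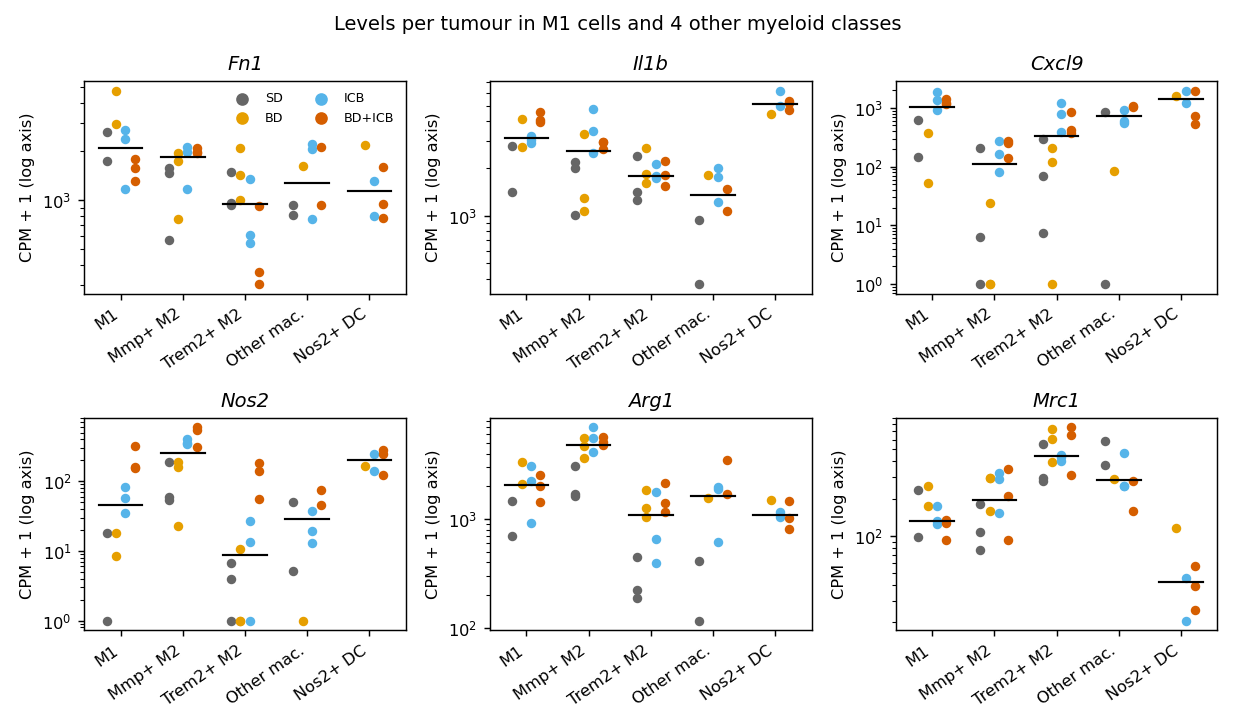
Each point is 1 tumour with at least 10 cells of the class, coloured by group. The vertical log axis gives CPM + 1 and the black bar the median over tumours. M1 cells sit above Mmp+ M2 macrophages for Cxcl9, and below them for Arg1, in 10 of the 10 tumours that held both.

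Single M1 cells often carried both messages in the blockade library. Of the 535 cells, 161 (30.1%) had UMIs of Arg1 and Nos2, 292 (54.6%) of Arg1 alone, 15 (2.80%) of Nos2 alone and 67 of neither. By tumour the share with both was 55.7%, 39.4% and 28.2% in BD+ICB and 10.2%, 26.5% and 25.8% in ICB tumours. It was 0% to 7.14% in the SD and BD tumours with at least 10 M1 cells. Pooled over all tumours, in a mix that differs between classes, it was 52.7% among Mmp+ M2, 4.89% among Trem2+ M2 and 30.4% among Nos2+ dendritic cells. Free RNA contributes to such shares, so T cells, which should lack these genes, give the background. Arg1 was seen in 84.7% of M1 cells and 10.8% of T cells, at median depths of 13258 and 6083 UMIs. After each cell was thinned to 2000 UMIs, leaving out 24 shallower T cells and no M1 cell, the shares were 69.5% and 3.37%. For Nos2 they were 32.9% and 3.13% before thinning and 16.4% and 1.35% after it. Among SD cells the thinned Nos2 share was 3.23% (1 of 31 cells, 6.45% unthinned) and among BD cells 3.33% (2 of 60, 8.33%). Among ICB cells it was 8.05% (12 of 149, 22.8%) and among BD+ICB cells 24.7% (73 of 295, 45.8%). These shares pool the cells of all tumours of a group and were not tested. The T cell background was not split by group or library.

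Markers of other cell types were low in the M1 sums. All 12 macrophage markers were detected, with summed levels of 12592 to 20945 CPM per tumour. The 9 T cell markers summed to 0 to 50.9 CPM, against 3026 to 7236 CPM in CD8 T cells. The 10 neutrophil markers summed to 177 to 868 CPM, with Ly6g at 0, against a mean of 97552 CPM in the highest neutrophil class. That sum was 277 to 868 CPM in ICB and 237 to 357 CPM in BD+ICB tumours, which overlapped, and 279 to 808 CPM in SD and 177 to 278 CPM in BD tumours, which did not. The 7 mesenchymal markers summed to 212 to 286 CPM in SD, 281 to 357 CPM in BD, 219 to 272 CPM in ICB and 205 to 218 CPM in BD+ICB tumours, so that ICB and BD+ICB tumours did not overlap, against 11835 CPM in mesenchymal cells. The 5 epithelial markers summed to 23.2 to 40.1 CPM in SD and 70.8 to 96.0 CPM in BD tumours without overlap, and to 45.4 to 74.9 CPM in ICB and 41.5 to 84.0 CPM in BD+ICB tumours. Endothelial markers were at 0 in SD, 11.3 to 14.8 CPM in BD and 15.1 to 30.9 CPM in the blockade library, with no overlap between the libraries. NK and B cell markers stayed at or below 5.73 CPM, mast cell and basophil markers were all at 0, and the 10 dendritic markers summed to 10.4 to 36.8 CPM with Cd209a and Siglech at 0. Monocyte markers were present at 976 to 2047 CPM. Their part in the results below was not tested.

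M1 cells had a larger mean share in the tumours on the butanediol diet, and the largest in BD+ICB tumours. In BD+ICB tumours they were 18.6%, 16.0% and 16.7% of all deposited cells, or 17.1% ± 1.33 (SD, n = 3). ICB tumours held 5.89%, 5.98% and 7.23%, or 6.36% ± 0.750. These groups did not overlap. The difference was 10.7 percentage points, with p = 0.1 in a two-sided exact permutation test, the smallest p that 3 tumours against 3 allow, and 0.422 after adjustment over 19 classes. Without blockade, BD tumours held 14.9%, 1.43% and 11.97% and SD tumours 3.85%, 1.44% and 2.11%. Here the groups overlapped through BD replicate 2, which gave a single M1 cell. The difference of 6.95 points had p = 0.4 (exact permutation test, adjusted 0.691). With tumours permuted within each library, the diet difference over both was 8.84 points with p = 0.02 (exact permutation test, adjusted 0.095). Leaving out BD replicate 2, the tumour that made the groups overlap, gave 10.8 points and an adjusted exact permutation p of 0.0475, and 10.9 points for BD minus SD. Leaving out any other tumour gave an adjusted exact permutation p of 0.076 to 0.1425 over both libraries.

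**Figure D2:**
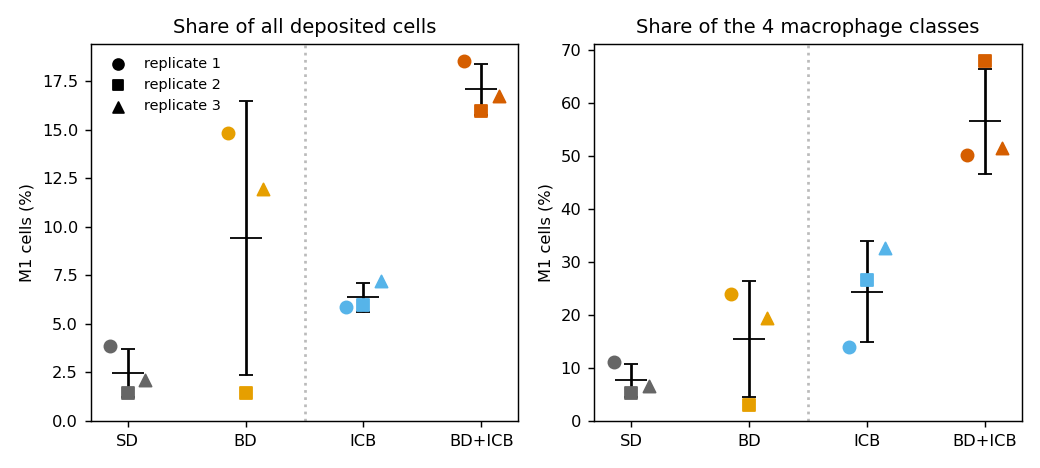
The percentage of M1 cells is plotted for each tumour, of all deposited cells on the left and of the 4 macrophage classes on the right, with the mean and SD (n = 3) in black. The 3 BD+ICB tumours lie at 16.0% to 18.6% of all cells and the 3 ICB tumours at 5.89% to 7.23%.

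Among macrophages alone the M1 class was a larger share again. It made up 50.2% to 68.0% of the 4 macrophage classes in BD+ICB tumours, 56.6% ± 9.89 (SD, n = 3), and 14.0% to 32.7% in ICB tumours, 24.4% ± 9.52. Mean shares were 15.5% in BD and 7.64% in SD. No deposited M1 cell had 500 or fewer hashtag counts, a limit that lies closer to the hashtag counts of butanediol tumours. Tumours were therefore also assigned from the hashtag counts without that limit. Deposited cells kept their class, and only added cells took one carried over from the 15 nearest deposited cells. This gave 514 deposited and 68 added M1 cells. The differences in share of all cells were then 8.71 points under blockade, 3.43 points without it and 6.07 points over both. Their adjusted exact permutation p-values were 0.38, 0.844 and 0.19. Tried on the deposited cells, whose class it did not change above, that carry-over was loose. Only 52.1% of the deposited cells it assigned to M1 were deposited as M1. It returned 72.5% of deposited M1 cells to M1 and sent 54 of the others to Trem2+ M2 and 40 to Nos2+ dendritic cells. A count model of cells per class (edgeR) gave a log2 ratio of 2.01 for BD over SD (adjusted p = 0.0357), 1.42 for BD+ICB over ICB (adjusted p = 0.1525) and 1.71 over both (adjusted p = 0.00301).

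The diet under blockade went with 4 gene changes in the M1 sums. Itga1 and Pdcd1lg2 rose, and Cx3cr1 and Apoc2 fell, out of 6701 genes tested (0.0597% called, edgeR quasi-likelihood test at an adjusted p under 0.05). Itga1, the collagen-binding integrin alpha 1, was at 12.3, 12.7 and 23.8 CPM in ICB tumours and 45.5, 81.1 and 53.7 CPM in BD+ICB tumours. All BD+ICB tumours lay above all ICB tumours, by a log2 fold change of 1.85 ± 0.29 (SE, adjusted p = 0.00877). Pdcd1lg2, which encodes PD-L2, a ligand of PD-1, was at 1.37, 3.63 and 3.41 CPM in ICB and 25.7, 32.9 and 12.03 CPM in BD+ICB tumours. Its log2 fold change of 3.06 ± 0.55 (adjusted p = 0.018) rests on 6 UMIs in the ICB tumours. After thinning to 2000 UMIs, Itga1 was seen in 5.79% of M1 cells and 6.06% of T cells, and Pdcd1lg2 in 3.36% and 12.4%. Mean Itga1 was 31.5 CPM in M1 cells and 50.3 CPM in CD8 T cells, and mean Pdcd1lg2 8.47 and 72.1 CPM. The part of free RNA in these 2 changes was not tested.

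Cx3cr1, the fractalkine receptor of monocytes and resident macrophages, was at 98.6, 118 and 53.4 CPM in ICB and 7.70, 5.49 and 10.4 CPM in BD+ICB tumours. It fell by 3.46 on the log2 scale (SE 0.42, adjusted p = 0.0128), with no overlap between the groups. The SD tumours (166 and 38.7 CPM) and BD tumours (85.0 and 59.1 CPM) overlapped instead. Apoc2, the apolipoprotein that activates lipoprotein lipase, was at 162, 285 and 224 CPM in ICB and 82.1, 101 and 109 CPM in BD+ICB tumours. It fell by 1.17 on the log2 scale (SE 0.20, adjusted p = 0.018). Cx3cr1 was on the list of mature macrophage genes and Apoc2 on that of lipid handling. Of 16 tested mature macrophage genes 14 had a negative fold change, with a median of -0.36 against -0.0031 over all genes, and only Cx3cr1 was called.

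Some genes had values apart in the ICB and BD+ICB tumours without passing the test. Fcrls, a receptor-like gene of resident macrophages, was at 13.7, 21.8 and 5.68 CPM in ICB tumours and at 0, 0 and 2.41 CPM in BD+ICB tumours, with an adjusted p of 0.052 by edgeR. Slamf8, a macrophage surface receptor, was at 58.9, 40.0 and 57.9 CPM in ICB and 103, 129.9 and 85.8 CPM in BD+ICB tumours (log2 fold change 1.03 ± 0.22, adjusted p = 0.0733). Nos2 was at 34.2, 56.3 and 82.9 CPM in ICB and 320.1, 152 and 161 CPM in BD+ICB tumours. These Nos2 values did not overlap, yet the adjusted p was 0.324 (log2 fold change 1.87 ± 0.42).

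Calls under blockade depended on single tumours. Their number was 0 without BD+ICB replicate 2, 1 without BD+ICB replicate 1 or ICB replicate 1, and 2 without ICB replicate 2. It was 21 without BD+ICB replicate 3 and 13 without ICB replicate 3. Without SD replicates 1 and 3, which enter the shared estimate of spread, it was 10 and 8. DESeq2 did not call Pdcd1lg2. In other classes these genes were fitted over the tumours with at least 10 cells of that class. For Nos2+ dendritic cells these included 2 ICB tumours, with 21 and 1 Cx3cr1 UMIs. Cx3cr1 had log2 fold changes of -2.40 in Mmp+ M2, -3.20 in Trem2+ M2 and -3.06 in Nos2+ dendritic cells, but it was not called in any of these classes. The test of its difference from M1 cells was not passed either (adjusted p = 0.9997, 1 and 0.9971). In Nos2+ dendritic cells Itga1 (1.22), Pdcd1lg2 (2.25) and Apoc2 (-0.63) had the same sign as in M1 cells. Apoc2 was at -0.70 in Trem2+ M2 and 0.0058 in Mmp+ M2, and Itga1 at 0.20 in Mmp+ M2. None of these was called, and no difference of these genes from M1 cells passed the test.

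Without blockade 4 other genes differed between the diets in M1 cells (0.0597% of 6701 called). Ptgs2 rose, and Ifitm3, Cd300c2 and Rrbp1 fell. Ptgs2, the inducible cyclooxygenase of prostaglandin synthesis, was at 172 and 248 CPM in SD and 779 and 1315 CPM in BD tumours, a log2 fold change of 2.26 ± 0.31 (SE, adjusted p = 0.0138). In ICB tumours it was at 1219, 935 and 914 CPM and in BD+ICB tumours at 1580.0, 1547 and 1125 CPM. The ICB and BD+ICB values overlapped (log2 fold change 0.49 ± 0.19, adjusted p = 0.667), and the 2 SD tumours were the lowest of the 10.

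Ifitm3, an interferon-induced membrane protein that blocks virus entry, was at 2173 and 1602 CPM in SD and 952 and 924 CPM in BD tumours. It fell by 1.06 on the log2 scale (SE 0.18, adjusted p = 0.0138), while under blockade it was at 1374 to 1711 CPM in ICB and 1526 to 1889 CPM in BD+ICB tumours. Cd300c2, an activating receptor of the Cd300 family, was at 453 and 495 CPM in SD and 241 and 192 CPM in BD tumours (log2 fold change -1.14 ± 0.22, adjusted p = 0.0416). Rrbp1, a ribosome-binding protein of the endoplasmic reticulum, was at 694 and 488 CPM in SD and 323 and 266 CPM in BD tumours (-1.04 ± 0.20, adjusted p = 0.0416). Each of these groups is 2 tumours with 11 to 45 M1 cells each. Ptgs2 lost its call without ICB replicate 2 or SD replicate 1, and Ifitm3 without BD+ICB replicate 1, SD replicate 1 or either BD tumour. Rrbp1 lost it in 9 of 10 and Cd300c2 in 10 of 10 fits that left out a tumour, and none of the 4 was called when the SD and BD tumours were fitted alone.

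Interferon and antigen presentation lists leaned lower in BD than in SD tumours, with no called member. Of 18 tested type I interferon response genes 15 had a negative fold change, with a median of -1.26 against 0.0113 over all genes. Ifi204, a DNA sensor, was at 269 and 217 CPM in SD and 113 and 59.1 CPM in BD tumours (adjusted p = 0.0951). Bst2, which tethers virus particles, was at 510.3 and 271 CPM in SD and 193 and 148 CPM in BD tumours (adjusted p = 0.0951). All 11 tested MHC class II presentation genes and 16 of 18 class I genes were negative as well, with medians of -0.58 and -0.35. Alternative activation genes leaned the other way, with 12 of 15 positive and a median of 0.44, and none of them was called.

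Over both libraries Ptgs2 and Slc7a11 were higher and Cd300c2 was lower in butanediol tumours (0.0448% of 6701 called). Ptgs2 had a log2 fold change of 1.38 ± 0.18 (edgeR, adjusted p = 0.0109), though only the SD and BD groups stood apart. Slc7a11, the cystine importer that feeds glutathione synthesis, was at 333 and 356 CPM in SD, 847 and 561 CPM in BD, 605, 581 and 659.5 CPM in ICB, and 769, 855 and 741 CPM in BD+ICB tumours. Butanediol tumours were higher within each library without overlap, by 0.70 ± 0.12 on the log2 scale (adjusted p = 0.0184). Cd300c2 was at 281, 314 and 244 CPM in ICB and 198, 218 and 210.1 CPM in BD+ICB tumours. It too was apart in each library, and fell by 0.77 on the log2 scale over both (SE 0.13, adjusted p = 0.0127). Slc7a11 lost its call in 6 of 10 fits that left out a tumour and Cd300c2 in 2. Without ICB replicate 2 no gene was called over both libraries, and without ICB replicate 3 there were 11. Leaving out BD replicate 3, SD replicate 1 or SD replicate 3 gave 8, 7 or 10 calls. Leaving out BD+ICB replicate 1 or 2 gave 1 or 2, and BD+ICB replicate 3 or BD replicate 1 gave 5.

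**Figure D3:**
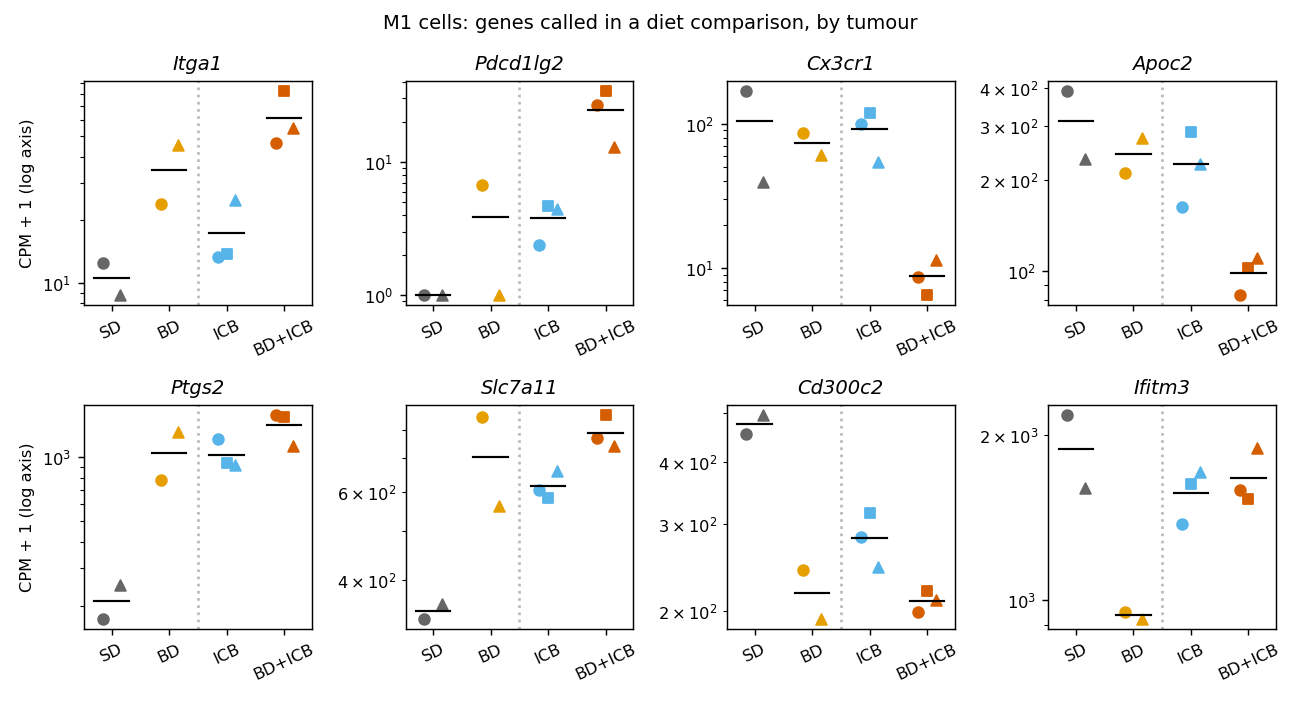
CPM + 1 in M1 cells is plotted on a log axis for each of the 10 tumours, with the group mean as a black bar and the libraries separated by a dotted line. Cx3cr1 lies at 5.49 to 10.4 CPM in BD+ICB tumours and at 38.7 CPM or more in all others, and Ptgs2 is lowest in the 2 SD tumours.

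A difference of the diet effect between the libraries was not called for any gene (0% of 6701, edgeR). At an unadjusted p under 0.05 there were 467 genes, and DESeq2 called 8. For Ptgs2 the difference of the diet effects was -1.77 ± 0.36 on the log2 scale (adjusted p = 0.199), for Ifitm3 1.17 ± 0.23 (adjusted p = 0.164) and for Cx3cr1 -2.89 ± 0.76 (adjusted p = 0.507). These 3 genes were called in one library and not in the other, but that contrast itself did not pass the test.

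Genes of ketone body handling gave no call. Of 13 such genes 7 were abundant enough to test, and none was called in any of the 5 contrasts. The receptor gene Hcar2 was at 57.3 and 7.74 CPM in SD, 22.7 and 7.39 CPM in BD, 30.1, 90.8 and 28.4 CPM in ICB, and 48.8, 51.8 and 18.4 CPM in BD+ICB tumours. Its values overlapped between all pairs of groups compared here. Of 16 histone deacetylase genes 8 were tested and none was called. The activation genes Arg1, Mrc1, Cxcl9, Cxcl10, Tnf and Il1b did not pass the test in a diet comparison either. Arg1 ranged from 699.5 to 3354 CPM, with 924, 3089 and 2220.3 CPM in ICB tumours and 2007, 2531 and 1426 CPM in BD+ICB tumours.

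The blockade library gave more calls against the other library than the diets gave within either. Of 6701 genes 223 were called (3.33%), 106 higher (1.58%) and 117 lower (1.75%). Antigen presentation and interferon-gamma genes were among those that rose. Ribosomal protein genes made up 62 of the 117 that fell, out of 89 tested. Ribosomal genes took 12.2% to 15.8% of M1 UMIs in the blockade library and 16.5% to 19.8% in the other, and the part of this difference in the results was not tested. Blockade and library cannot be told apart in any of these values. The count was 109 without SD replicate 3, 127 without BD replicate 3 and 147 without BD+ICB replicate 1.

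MHC class I presentation had the most calls of any pathway list. All 18 tested genes had a positive fold change and 9 rose, with a list median of 0.87 against 0.0447 over all genes. Of all genes tested 1.58% rose. The pathway cuts proteins in the immunoproteasome, moves peptides into the endoplasmic reticulum through the Tap transporter and loads them on the heavy chain with B2m. Tap1, one chain of that transporter, was at 91.7 and 31.0 CPM in SD, 62.4 and 22.2 CPM in BD, 122, 123 and 134 CPM in ICB and 171, 163 and 136 CPM in BD+ICB tumours (log2 fold change 1.30 ± 0.23, adjusted p = 0.0016). Every tumour of the blockade library lay above every tumour of the other. Tapbp, which bridges the transporter and the heavy chain, was at 155 to 351 CPM in the first library and 374 to 664 CPM in the blockade library (1.14 ± 0.18, adjusted p = 0.0019).

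The immunoproteasome subunits Psmb9 and Psmb8 rose by 0.87 ± 0.17 and 0.67 ± 0.14 (edgeR, adjusted p = 0.0041 and 0.00485). Psmb9 was lowest in BD tumours, at 85.0 and 51.7 CPM, against 183 and 132 CPM in SD and 165 to 236 CPM in the blockade library. The proteasome activator subunit Psme2 and the other transporter chain, Tap2, rose by 0.68 ± 0.16 and 1.03 ± 0.24. B2m, the shared light chain, was at 1396 to 3152 CPM in the first library and 4066 to 6448 CPM in the blockade library (1.12 ± 0.23, adjusted p = 0.0387). H2-K1 and H2-T23, a classical and a nonclassical heavy chain, rose by 0.86 ± 0.19 and 1.08 ± 0.19, but they belong to a family of similar genes among which the counting could split reads, so their values are uncertain. The B2m call was lost in 5 of 10 fits that left out a tumour, Tap2 and Psme2 in 2 each and H2-K1 in 1, and Tap1, Tapbp, H2-T23, Psmb9 and Psmb8 kept theirs in all 10.

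Interferon-gamma response genes moved in the same direction, with 23 of 25 positive, a median of 1.08 and 5 called, against 1.58% of all genes that rose. Cd274, which encodes PD-L1, the ligand of PD-1, was at 29.6 to 133 CPM in the first library and 138 to 267 CPM in the blockade library (log2 fold change 1.45 ± 0.27, adjusted p = 0.00679). Irf8, a myeloid transcription factor, was at 66.5 to 150.2 CPM in the first library and 181 to 251 CPM in the blockade library (log2 fold change 0.85 ± 0.19, adjusted p = 0.00866). Irgm2, an immunity-related GTPase, was at 0 to 5.73 CPM in the first library and 15.2 to 30.1 CPM in the blockade library, and Gbp6, a guanylate-binding protein, at 0 to 17.2 and 10.9 to 47.5 CPM. Gbp6 lost its call in 8 of 10 fits that left out a tumour, and Cd274 and Irf8 in 1 each. Type I interferon genes had a median of 0.45 with 14 of 18 positive and none called.

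**Figure D4:**
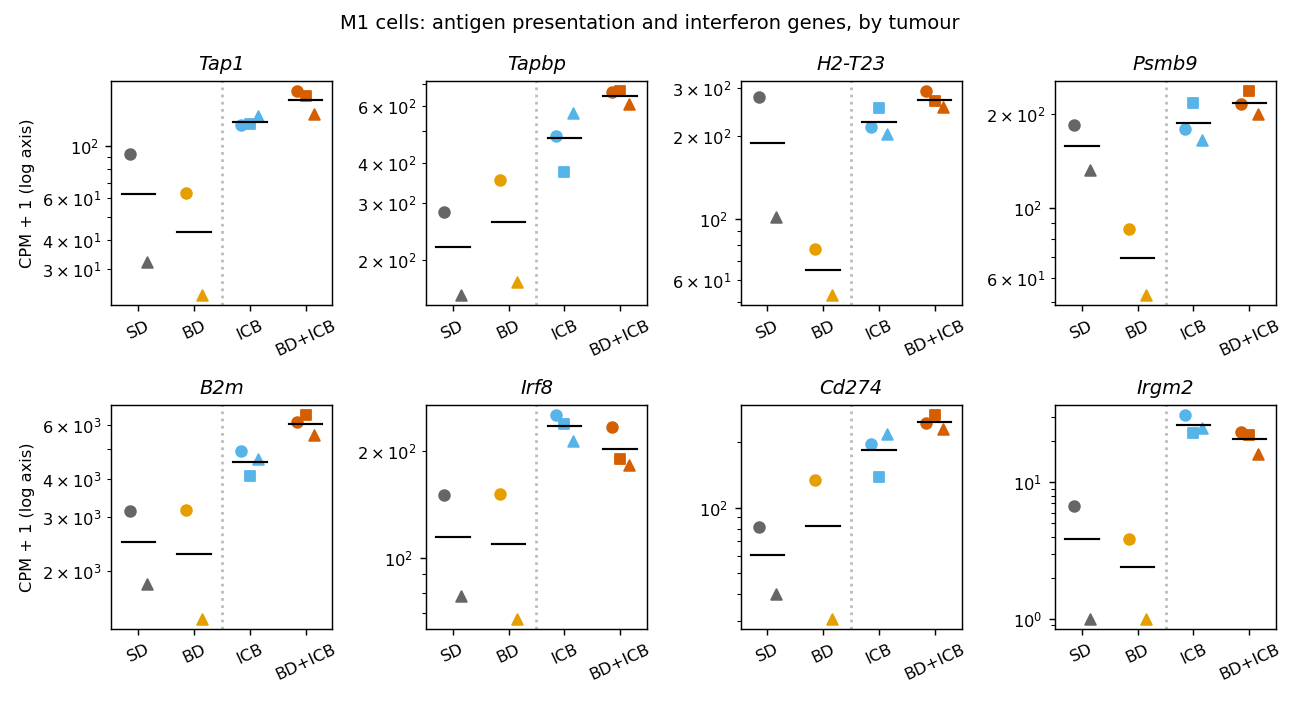
CPM + 1 in M1 cells is plotted on a log axis by tumour and group for 8 antigen presentation and interferon genes, with group means as black bars. For Tap1, Tapbp, B2m, Irf8, Cd274 and Irgm2 all tumours right of the dotted line, which separates the libraries, lie above all tumours left of it.

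Promoters of these called genes are shown because the genes rose together and interferon-activated factors are known to bind particular letters. RefSeq start sites on GRCm38.p6 gave the 250 bases upstream of the start for 11 of the 14 called class I and interferon-gamma genes. The letters TTTC NN TTTC of the interferon-stimulated response element (ISRE; N is any base), on either strand, were in 3 of these 11 genes, and the letters TTC NNN GAA of the gamma-activated site (GAS) in 3. Either motif was in 5 genes, and 1 of them, Irgm2, held both. Over all 32851 promoters of the same length the shares were 2.977% and 7.02%. These shares count promoters, while a gene above counted if any of its start sites matched. Irf8, H2-K1 and Psme2 had more than 1 start site, so the units differ. A match is a description of letters and not a measured binding site. Printed are 1 promoter with ISRE letters, 1 with both and 1 with GAS letters, 5′ to 3′ on the strand of the gene (the plus strand for all 3), with the motif letters in capitals. They are chr2:122147437-122147686, chr11:58214727-58214976 and chr17:34197945-34198194. The motifs begin 139 bases before the start of B2m, 64 (ISRE) and 75 (GAS) before that of Irgm2 and 97 before that of Psmb8.
B2m: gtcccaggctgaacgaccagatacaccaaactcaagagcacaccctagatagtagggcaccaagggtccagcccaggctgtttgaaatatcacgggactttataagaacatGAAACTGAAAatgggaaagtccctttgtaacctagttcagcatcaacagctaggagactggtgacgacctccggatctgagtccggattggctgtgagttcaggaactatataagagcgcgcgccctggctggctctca
Irgm2: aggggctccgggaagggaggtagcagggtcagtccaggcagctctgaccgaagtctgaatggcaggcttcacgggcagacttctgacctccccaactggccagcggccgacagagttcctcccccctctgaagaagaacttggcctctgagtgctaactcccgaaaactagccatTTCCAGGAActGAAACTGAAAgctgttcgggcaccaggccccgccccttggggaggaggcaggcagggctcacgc
Psmb8: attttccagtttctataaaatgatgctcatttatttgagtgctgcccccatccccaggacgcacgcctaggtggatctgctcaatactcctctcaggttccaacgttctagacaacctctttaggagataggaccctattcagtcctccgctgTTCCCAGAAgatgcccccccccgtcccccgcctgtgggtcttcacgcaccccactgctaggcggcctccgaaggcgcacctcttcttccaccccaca

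Classical and alternative activation genes parted in this contrast. All 15 tested classical genes had a positive fold change, median 0.78, and 2 were called, Ptgs2 (log2 fold change 1.38 ± 0.18, edgeR adjusted p = 0.000846) among them. Of all genes tested 1.58% rose. Alternative activation genes had a median of -0.07 with 7 of 15 positive and none called. Cxcl9 was at 51.7 to 608 CPM in the first library and 915 to 1857 CPM in the blockade library without overlap, yet its adjusted p was 0.105 (2.08 ± 0.51). Nos2 was at 0 to 17.2 CPM in the first library and 34.2 to 320.1 CPM in the blockade library (3.21 ± 0.75, adjusted p = 0.0743). Arg1 did not pass the test (0.24 ± 0.43, adjusted p = 0.862).

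Of 16 tested genes of arginine and polyamine metabolism 2 rose, against 106 of all 6701 genes (1.58%). Ass1, which makes argininosuccinate and lets cells regenerate arginine for nitric oxide synthesis, was at 22.9 and 7.74 CPM in SD, 116 and 7.39 CPM in BD, 247, 171 and 311 CPM in ICB and 483, 559 and 374 CPM in BD+ICB tumours. Its log2 fold change was 3.22 ± 0.51 (edgeR, adjusted p = 0.0163), with no overlap between the libraries. The importer Slc7a2, a marker of the class, was at 5.73 to 46.4 CPM in the first library and 53.4 to 198 CPM in the blockade library (1.97 ± 0.45, adjusted p = 0.0381). Ly6i, another marker, was at 5.73 to 34.0 CPM and 70.8 to 524 CPM, with an adjusted p of 0.0744. The Slc7a2 call was lost in 5 of 10 fits that left out a tumour and the Ass1 call in 2, and both with the replicate block. The remaining markers Fn1, Msr1 and Clec4n did not pass (adjusted p = 0.343, 0.0744 and 0.147).

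Some genes of inflammatory signalling and 2 of glycolysis were among the others that rose with the blockade library. Malt1, a protease of NF-kB signalling, rose by 1.08 ± 0.15, and Nfkb1, Sod2, Traf1 and Tnip1 were the 4 called of 22 NF-kB and TNF response genes, by 0.58, 0.58, 1.02 and 1.04 (edgeR). Hk3, a myeloid hexokinase, was at 22.2 to 45.9 CPM in the first library and 76.3 to 156 CPM in the blockade library (log2 fold change 1.60 ± 0.24, adjusted p = 0.000524). Hk3 and Pfkp (0.86 ± 0.20) were the 2 called among 20 glycolysis genes, while Ndufa4, Cox4i1 and Atp5g1 fell among 35 respiratory chain genes. Of all 6701 genes 1.58% rose and 1.75% fell. The glycolysis list had 12 positive and 8 negative members, with a median of 0.18 against 0.04 over all genes. Cox4i1 and Atp5g1 lost their calls in all 10 fits that left out a tumour and with the replicate block or with no filter on low counts, and Ndufa4 in 1 of 10. Sod2 lost its call in 3 of those 10 fits, Inhba in 2 and Traf1 and Pfkp in 1 each. Inhba, a subunit of the growth factor activin, was at 44.3 to 196 CPM in the first library, 269 to 379 CPM in ICB and 737 to 1397 CPM in BD+ICB tumours (2.11 ± 0.35, adjusted p = 0.0167). Slamf8 was at 0 to 22.9 CPM in the first library and 40.0 to 129.9 CPM in the blockade library (2.27 ± 0.38, adjusted p = 0.00113). The inhibitory receptors Cd300lf and Pilra rose by 1.19 ± 0.22 and 0.77 ± 0.16.

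Some genes of resident macrophages were among those that fell. Fcrls was at 22.2 to 57.3 CPM in the first library and 0 to 21.8 CPM in the blockade library (log2 fold change -3.60 ± 0.57, edgeR adjusted p = 0.000766). Trem2, a lipid-sensing receptor, fell by 0.73 on the log2 scale (SE 0.15, adjusted p = 0.00701). Cx3cr1 fell by 1.81 (SE 0.40, adjusted p = 0.0282), with its low values in the BD+ICB tumours only. Of 16 mature macrophage genes 13 were negative with a median of -0.33, and Trem2 and Cx3cr1 were called, against 1.75% of all genes that fell. Of 15 lipid handling genes 8 were positive, with a median of 0.06 against 0.04 over all genes. Trem2 and Apoc2 (-0.89) of that list fell, and Npc2, a lysosomal cholesterol carrier, rose by 0.41. Of these calls Npc2 was lost in 8 of 10 fits that left out a tumour, Cx3cr1 in 5, and Trem2 and Apoc2 in 2 each. Rgs10, a regulator of G protein signalling, was at 229.6 to 384 CPM in the first library and 68.9 to 153 CPM in the blockade library (-1.39 ± 0.17, adjusted p = 0.000101). Lgals1, the lectin galectin-1, fell by 0.80 (SE 0.11) and the integrin Itga6 by 1.67 (SE 0.33), a call that was lost without SD replicate 1.

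**Figure D5:**
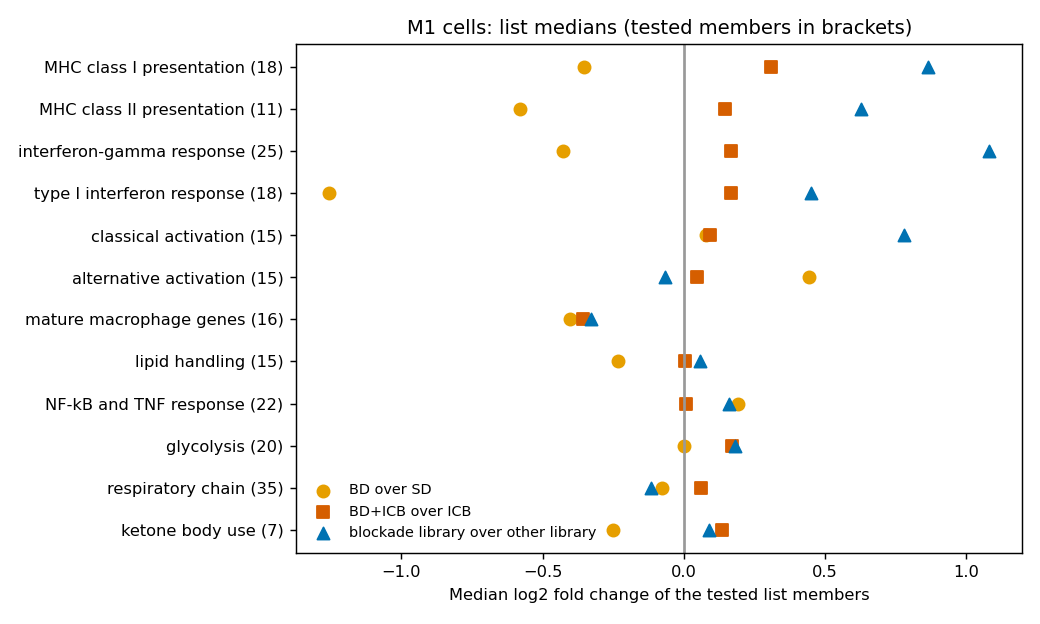
Each point is the median log2 fold change over the tested members of a list (number in brackets) in 1 of 3 comparisons. The blockade library lies to the right for MHC class I (0.87) and interferon-gamma genes (1.08), and BD over SD lies to the left for type I interferon genes (-1.26).

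The diet effect under blockade was compared between M1 cells and 3 other myeloid classes of the same tumours. Against Mmp+ M2 it differed for 2 of 6857 genes (0.0292%), against Trem2+ M2 for 6 of 6543 (0.0917%) and against Nos2+ dendritic cells for 5 of 8225 (0.0608%), by the edgeR interaction test with tumour as a block. Apoe, the lipid carrier of tissue macrophages, was called against both M2 classes. In M1 cells it was at 6030.1, 5969.5 and 1909 CPM in ICB and 1656, 854 and 1444 CPM in BD+ICB tumours. In Trem2+ M2 it was at 22738, 18350.0 and 7961 CPM in ICB and 24414, 10936 and 11869 CPM in BD+ICB tumours. The BD+ICB values lay below the ICB range in M1 cells and inside or above it in Trem2+ M2, a difference of -1.70 ± 0.16 on the log2 scale (adjusted p = 5.59e-06). Within M1 cells alone the diet effect on Apoe did not pass the test (log2 fold change -1.80, adjusted p = 0.597).

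Gatm, an enzyme that makes the creatine precursor from arginine, was at 255 to 309.9 CPM in ICB and 265 to 409 CPM in BD+ICB M1 cells. In Trem2+ M2 it was at 189 to 213 CPM in ICB and 41.0 to 85.2 CPM in BD+ICB tumours, so the low values were in that class (difference 1.92 ± 0.30, edgeR adjusted p = 0.000338). Nos2 differed from the Nos2+ dendritic class, which was at 138 and 245 CPM in 2 ICB tumours and at 283, 122 and 247 CPM in BD+ICB tumours (difference 1.74 ± 0.30, adjusted p = 0.000383). That Nos2 call was lost without ICB replicate 1 or ICB replicate 3. Without the tumour block no gene was called in any of the 3 comparisons. The numbers of calls changed by over 1.5 times when single tumours were left out, to 1 without BD+ICB replicate 1 or any ICB tumour and 6 without BD+ICB replicate 3 against Mmp+ M2, and to 2 without ICB replicate 2 against Trem2+ M2. Against Nos2+ dendritic cells they were 20 without BD+ICB replicate 3 and 17 without ICB replicate 1.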

How the data were processed

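The deposited data were UMI counts per gene and cell barcode in 2 libraries, produced by Cell Ranger (6.1.1 per the file headers), and the submitters' processing notes name R 4.1 and the mm10 build. The authors also deposited hashtag counts, and per the file headers a cell table with class and tumour labels, UMI counts, the percent of mitochondrial UMIs and a score of genes per cell. How cells were filtered, clustered and cleared of doublets is not stated in the labels or file headers, and no doublet caller was run.

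M1 members, gene lists and named genes were chosen with earlier results of these data known. UMI counts were summed over the M1 cells of each tumour with at least 10 of them. They were fitted with edgeR 4.0.16 (R 4.3.3; filterByExpr, TMM, robust quasi-likelihood) over all 4 groups, with the diet tested in each library, over both and as a difference, and the libraries against each other. P-values were Benjamini-Hochberg adjusted over all genes tested, with a threshold of 0.05. Comparisons with other classes used the tumour as a block. Shares were tested by exact permutation of tumours (scipy 1.17.1), adjusted over 19 classes. The fits were tested on simulated data first. A log2 change of 1 was recovered for 61.5% of changed genes under blockade, 12.5% for BD over SD and 38.8% for the blockade library. For a change of 2 the shares were 96%, 59.2% and 87.4%. False calls were 16 of 171, 6 of 76 and 9 of 130 in the same order. The comparison with Trem2+ M2 recovered 59.1% at a change of 2, with 3 false among 120 calls. Its counts were drawn with 1 assumed spread for all genes (a dispersion of 0.05) and no tumour effect shared by the classes. These rates may therefore not hold for the real comparison with tumour as a block. Alternatives included DESeq2 1.42.0 and leaving out each tumour.

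Named were up to 12 raised and 12 lowered genes with the smallest adjusted p per comparison, the 6 class markers, up to 4 members per list and comparison with the smallest p, and Ptgs2, Nos2, Arg1, Mrc1, Cd274, Hcar2, Cxcl9, Cxcl10, Tnf, Il1b, H2-Ab1 and Ifitm3. Predicted, mitochondrial and ribosomal protein genes were counted and not named. A few called list members beyond 4 (such as H2-K1 and B2m), Fcrls, Slamf8 and Nos2 under blockade, and the genes called against other classes were named after their values were seen. A called list member is counted and not reported here.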

Additional observations from a re-analysis of the deposited data

Results flagged for a closer look

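For 13 results the diet effect under blockade differed between M1 cells and another class by the edgeR interaction test, given here as the M1 log2 fold change minus that of the other class. None of them was called without the tumour block. Against Mmp+ M2 macrophages, Serpinb2, a protease inhibitor of activated macrophages, differed by 5.51 ± 0.75 (SE, adjusted p = 0.000248). It rests on 3 UMIs in the ICB tumours of M1 cells, against 164 UMIs in those of Mmp+ M2. Its levels were 0 to 2.27 CPM in ICB and 1.83 to 26.9 CPM in BD+ICB M1 cells, and 67.2 to 119.7 and 2.84 to 35.4 CPM in Mmp+ M2. The lipid carrier gene Apoe differed by -1.41 ± 0.26 (adjusted p = 0.0291), a call that was lost without BD+ICB replicate 1 or any of the ICB tumours.

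Against Trem2+ M2 macrophages, Apoe differed by -1.70 and Gatm by 1.92, and both calls held whichever tumour was left out. The lysozyme gene Lyz2 differed by -0.82 ± 0.14, with 5398 to 8216 CPM in BD+ICB M1 cells and 10663 to 17981 CPM in BD+ICB Trem2+ M2. The paired membrane genes Tmem176b and Tmem176a differed by -2.26 and -2.88. In M1 cells of BD+ICB tumours they were at 1.83 to 7.06 and 1.92 to 2.44 CPM, and in Trem2+ M2 at 10.3 to 104 and 5.13 to 90.1 CPM. The immediate early gene Egr1 differed by -1.39, with 37.8 to 84.8 CPM in BD+ICB M1 cells against 351 to 682 CPM in Trem2+ M2. The Egr1 and Tmem176b calls were each lost in 4 of 10 fits that left out a tumour, Tmem176a in 3 and Lyz2 in 1, and Egr1, Tmem176b and Tmem176a also with at least 20 cells per tumour.

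Against Nos2+ dendritic cells, which had at least 10 cells in 2 ICB tumours, Nos2 differed by 1.74 and the chemokine gene Ccl5 by 1.27 (adjusted p = 0.000383 for each). Ccl5 was at 67.0 to 190.4 CPM in ICB and 95.4 to 348 CPM in BD+ICB M1 cells. The interleukin-1 antagonist gene Il1rn differed by 0.71 and the heme-degrading enzyme gene Hmox1 by -0.87. Ms4a4b, a T cell gene, differed by 4.51 and was lost without ICB replicate 3. In that tumour the dendritic class held 17 Ms4a4b UMIs and a summed T cell marker level of 324 CPM, against 0 to 53.2 CPM in its other tumours, and the part of this in the result was not tested. These Nos2+ dendritic calls other than Ms4a4b were lost in 2 to 4 of the 6 fits that left out a tumour.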

How the results depend on the processing

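Of 81 gene results past the threshold, 29 kept their side of it in every alternative and none changed sign. RLE size factors, at least 5 cells per tumour, at least 1000 UMIs per cell and the deposited expression table left all 5 counts of called genes within 1.5 times. With DESeq2 the counts were 9 for BD+ICB over ICB, 13 for BD over SD, 14 for the diet over both libraries and 8 for the difference of the diet effects. With no filter on low counts they were 69, 40, 39 and 24, and 367 for the blockade library (272 higher, with a median log2 fold change of 0.3637 over all genes), and 16, 14 and 12 for the comparisons with Mmp+ M2, Trem2+ M2 and Nos2+ dendritic cells. Tumours of the library alone gave 11 calls under blockade and 0 without it, and the stricter hashtag rule gave 11 under blockade and 5 over both. At least 20 cells per tumour gave 12 under blockade, 1 against Mmp+ M2 and 3 against Nos2+ dendritic cells, and could not be run for the other gene contrasts, which lack tumours. Without the tumour block all 3 comparisons with other classes gave 0 calls. Same-numbered ICB and BD+ICB tumours had correlations of their deviations of 0.0874, 0.0549 and 0.004, so the numbers were not taken as pairs. With the replicate number as a block the counts were 11 under blockade, 2 for BD over SD and 5 over both. Leaving out each tumour gave 0 to 21 calls under blockade, 1 to 9 for BD over SD, 0 to 11 over both, 0 to 9 for the difference (3 without BD replicate 1, 2 without ICB replicate 1 and 9 without SD replicate 3) and 109 to 270 for the blockade library. Against Mmp+ M2, Trem2+ M2 and Nos2+ dendritic cells it gave 1 to 6, 2 to 10 and 4 to 20. The differences in M1 share ranged from 9.99 to 11.3 points under blockade, 4.23 to 10.9 without it and 7.48 to 10.8 over both, and edgeR on cells per class gave log2 ratios of 2.01 for BD over SD and 1.71 over both. Shares of macrophages and of immune cells without the hashtag limit, chosen after seeing the data, gave differences of 29.6 and 9.58 points under blockade. The cause of these changes was not tested. Depth limits the SD and BD sums most, with 129216 to 352847 UMIs a tumour, against 550631 to 1639760 in the blockade library.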
